A study of Bos taurus with 4 samples.

Results

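Heat shock and chaperone genes were examined in polyadenylated RNA from bovine (Bos taurus) embryos after knockdown of KDM5 histone demethylases. Members were chosen by symbol alone: HSPA, HSPB, HSPC, HSPD, HSPE, HSPH, HSP90, HSF, DNAJ, CCT, PFDN and BAG genes, and TCP1, PTGES3, STIP1, AHSA1 and CDC37. This gave 95 transcript rows of 92 genes, out of 14517 rows of 14002 named genes. HSP90AB1 fits the names but was left out of the set because its row stands apart: its controls read 38.2 and 23.9 FPKM, and its knockdown libraries 2.07 and 2.84 FPKM. A further 11 protein-coding genes with fitting symbols, among them HSPA4L, HSPA6, DNAJC1 and DNAJC8, were not analysed here.

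Chaperones bind unfolded or partly folded proteins and help them reach or keep their native form. HSP70 proteins work in cycles of ATP hydrolysis that J-domain proteins (the DNAJ genes) start and that nucleotide exchange factors, such as the BAG and HSP110 proteins, complete. HSP90 takes up clients from HSP70 with the help of co-chaperones, the CCT ring and prefoldin fold actin and tubulin, and small heat shock proteins hold unfolded proteins in solution. The transcription factor HSF1 raises many of these genes under stress, and in mouse embryos inducible HSP70 genes are among the first to be transcribed when the embryonic genome is switched on.

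Zygotes had been given negative control siRNAs (NC, 2 libraries) or siRNAs for a knockdown that the sample titles call Kdm5_KD (KDM5_KD, n = 2 libraries). The titles do not list the genes, and the targets are taken here to be KDM5A, KDM5B and KDM5C. Embryos were collected 3 days after insemination with 8 to 16 cells. KDM5 proteins are demethylases of histone H3 that act at active promoters, and the comparison asks how the transcriptome differs when they are depleted. The treatment entry of KDM5_KD replicate 2 names KDM6 genes instead, against its title. The labels give neither the number of embryos in a library nor whether the replicates came from separate batches of zygotes, so p-values measure only the spread between these libraries, which may be technical.

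KDM5A was at 28.4 and 27.1 FPKM in NC, against 10.5 and 10.1 FPKM in KDM5_KD replicates 1 and 2, and KDM5C at 28.1 and 40.6 against 15.1 and 17.8 FPKM. Both knockdown libraries, including the one with the disagreeing label, were thus low for both targets. KDM5B was not analysed here. Read counts are not given, so absolute depth is unknown. The steps between the lowest values put NC replicate 1 and KDM5_KD replicates 1 and 2 at 0.683, 0.802 and 0.782 times the depth of NC replicate 2. Markers of the embryo were present in every library: the rows of 6 genes, POU5F1, NANOG, TFAP2C, DPPA3, KLF4 and KLF5, summed to between 970.005 and 1119 FPKM. Markers of other cells and an interferon response differed between the groups and are given with the small heat shock proteins.

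Chaperone transcripts were abundant and their total was alike in the 4 libraries. The 95 rows summed to 5177 and 4815 FPKM in NC, against 5362 and 5112 FPKM in KDM5_KD, which is between 1.73% and 1.85% of all FPKM on protein-coding (NM) rows. The NM rows summed to 286544 and 278405 FPKM (NC) against 289235 and 284250 FPKM (KDM5_KD). All rows summed to 287950 and 283347 against 322267 and 297389 FPKM, so rows other than NM held more FPKM in KDM5_KD. FPKM are fragments scaled to transcript length and to library size, so these levels can be set side by side between genes. The constitutive HSP70 gene HSPA8 alone gave 829, 707, 826 and 688 FPKM and ranked between 15th and 26th of all 14517 rows. The next most abundant members were DNAJB1, PTGES3, HSP90AA1, AHSA1 and HSPA1A.

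In the comparison of groups, 83 rows of 80 genes had a mean of at least 1 FPKM and were tested with limma on log2(FPKM + 1). The other 12 rows, among them HSPB2, HSPB8, HSPB9, HSF4, CCT6B and DNAJB13, were too low, and DNAJC5B and HSFY2 were listed at 0 throughout. No member passed an adjusted p of 0.05 in either direction; across all 8970 rows tested, 0.19% passed as higher and 0.0892% as lower in KDM5_KD. At an unadjusted limma p under 0.05, 12 members were higher and 0 lower, against a background of 14.3% higher and 3.12% lower. The share of members that were higher by this count, 14.5%, was thus at the background. In either direction the count was 7 after median-ratio scaling and 18 with the replicate number as a block. Shares of all rows at this limit are not given for these settings, so neither count has a background beside it. The smallest adjusted p of any member was 0.124. The left-out HSP90AB1 did pass as lower in KDM5_KD, with a log2 difference of -3.19 (limma adjusted p of 0.0171).

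The 12 members with an unadjusted limma p under 0.05 came from 8 of the families: HSP90B1, HSPA5, DNAJA1, DNAJA4, DNAJB4, DNAJC9, HSPB1, HSPB6, HSPD1, HSPE1, PFDN1 and BAG1. All 12 had a positive difference in every alternative in which their row was tested. Both knockdown values exceeded both control values in all 12, so only the scalings or the summing of rows could have turned a sign.

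Both knockdown values lay above both control values for 38 of the 83 rows (45.8%), against 35.1% of all rows tested, and below them for 8 rows (9.64%), against 15.6% of all rows. The median difference of the members was 0.09 on the log2(FPKM + 1) scale, and that of all rows tested was also 0.09. The split depended on scaling: 32 rows lay above and 18 below after median-ratio scaling, and 25 and 18 after quantile normalization, which shifted the median of all rows by -0.14. Over all rows tested these shares were 27.8% above and 22.8% below with the first, and 20.9% and 28.1% with the second. In the plot of differences by family, most families straddle the median of all rows.

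**Figure D1:**
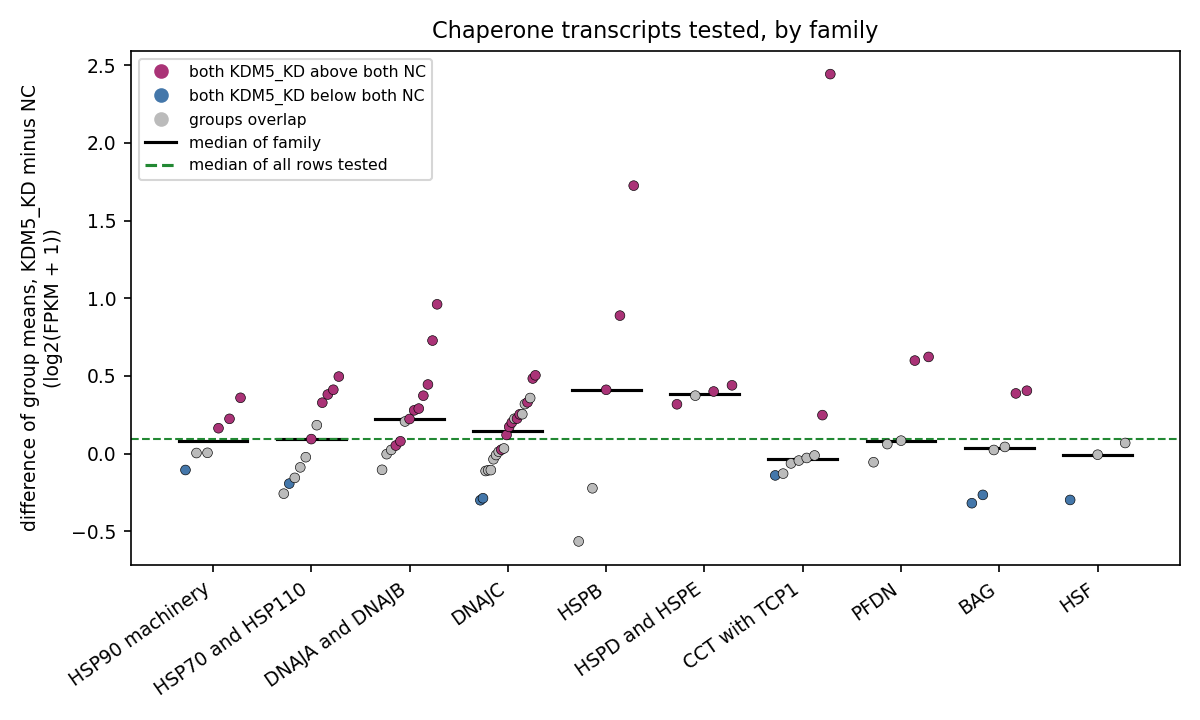
Difference of group means (KDM5_KD minus NC, on log2(FPKM + 1)) for each of the 83 chaperone rows tested, by family; points are coloured by whether the groups overlap, black bars are family medians and the dashed line is the median of all rows tested (0.09). The 4 HSPD and HSPE rows all lie above the dashed line, and of the 8 CCT and TCP1 rows only CCT2 (0.25) and CCT6A (2.44) lie above it.

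Differences are given here by level. When all rows tested were divided into 4 bins of equal size by mean FPKM, the top bin held 35 members. Of these, 19 had a positive difference, and their median difference was 0.01, beside -0.02 for all rows of that bin. In the next bin down, 16 of 22 members were positive with a median of 0.23, beside 0.06 for all rows there. In the third bin, 11 of 14 were positive with a median of 0.32, beside 0.16. The 12 members in the lowest bin had a median of 0.20, beside 0.25 for all rows.

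By the rule for named genes, the 6 largest on the higher side were CCT6A, HSPB1, DNAJB4, PFDN1, PFDN4 and HSPA4, and the 6 largest on the lower side were BAG5, DNAJC25, HSF2, DNAJC5, BAG2 and CCT5. Their log2 differences ran from 0.50 to 2.44 and from -0.32 to -0.14, so under this rule, with HSP90AB1 left out, the lower side held small differences only. The low row of HSPB3, outside the rule, was at -0.56 with groups that overlapped. HSPB6 and DNAJA4, below the mean of 5 FPKM that the rule asks for, are described with their families.

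**Figure D2:**
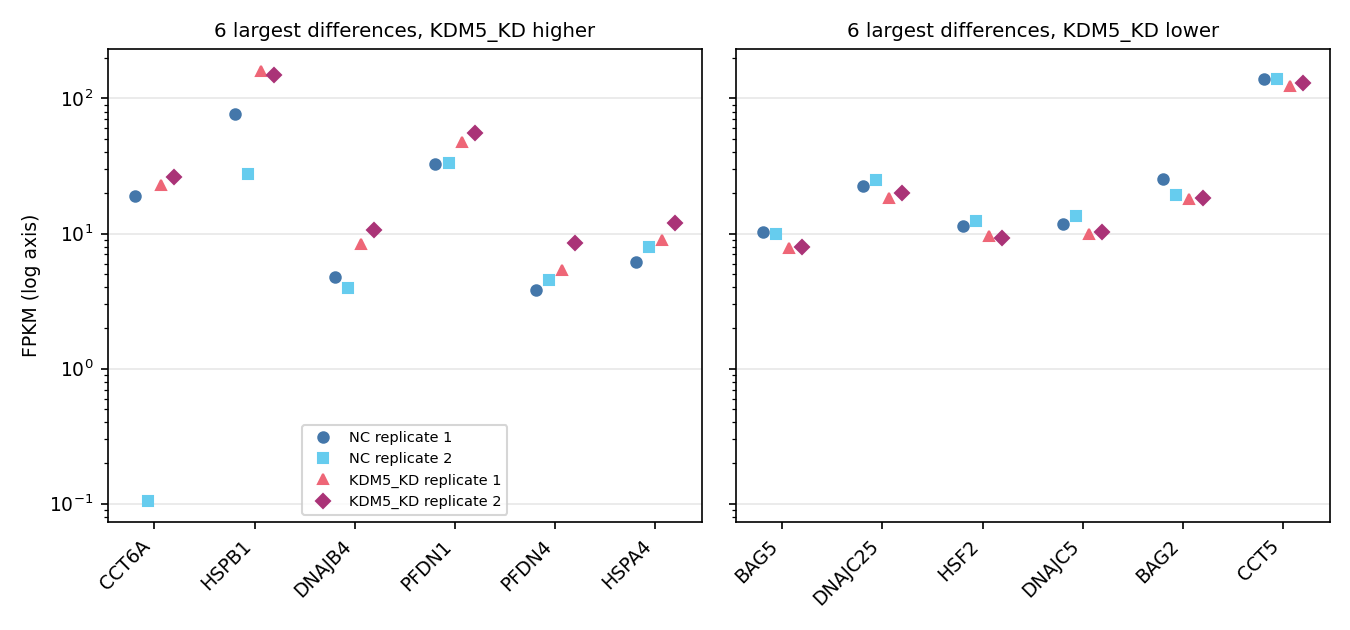
FPKM (log axis) in each of the 4 libraries for the 6 members with the largest differences on each side among rows with a mean of at least 5 FPKM and groups that do not overlap; each marker is 1 library. CCT6A is set apart by a single library, NC replicate 2 at 0.105 FPKM, while on the lower side the groups are separated by small steps.

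The HSP90 machinery held 6 rows, all tested. HSP90AA1, the inducible cytosolic HSP90, was at 221 and 235 FPKM (NC) against 253 and 258 FPKM (KDM5_KD). The groups did not overlap, but the log2 difference of 0.16 (SE 0.108, limma adjusted p of 0.486) was small. AHSA1, which stimulates the HSP90 ATPase, was at 185 and 163 against 197 and 209 FPKM, also without overlap.

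PTGES3, the p23 co-chaperone that holds HSP90 in its closed state, had the highest level of this family at 323 and 279 FPKM (NC) against 328 and 276 FPKM (KDM5_KD). Its difference was 0.01 with a 95% confidence interval of -0.34 to 0.35, and replicate 1 exceeded replicate 2 in both groups. CDC37, which brings protein kinases to HSP90, stayed within 75.7 to 80.7 FPKM over the 4 libraries. STIP1, the adaptor that joins HSP70 to HSP90, was at 142 and 132 against 129 and 125 FPKM, with both knockdown values below both controls (limma adjusted p of 0.678). HSP90B1, the HSP90 of the endoplasmic reticulum, is described with that compartment.

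The HSP70 and HSP110 group held 11 rows, of which 5 lay above, 1 below and 5 overlapped, beside 35.1% above and 15.6% below over all rows tested. HSPA8 differed by -0.02 (95% confidence interval -0.38 to 0.34), and its replicates within a group were further apart than the groups. HSPA1A, the main heat-inducible HSP70, was at 227 and 182 FPKM (NC) against 188 and 154 FPKM (KDM5_KD). These groups overlapped, with a log2 difference of -0.26 (SE 0.162, limma adjusted p of 0.468). HSPA2, best known from the male germ line, was at 137 and 98.1 against 114 and 94.4 FPKM and overlapped too.

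HSPA4, an HSP110-type exchange factor, had the largest difference of this group. It was at 6.19 and 7.98 FPKM (NC) against 8.94 and 11.9 FPKM (KDM5_KD), a log2 difference of 0.50 (SE 0.219, limma adjusted p of 0.317). HSPA14, a ribosome-associated HSP70, was at 10.5 and 12.2 against 13.9 and 16.2 FPKM. The other HSP110 gene among the members, HSPH1, was at 42.1 and 34.8 against 47.0 and 40.5 FPKM, and its groups overlapped. The low HSPA12B was the row that lay below, at 2.18 and 2.02 against 1.58 and 1.85 FPKM. HSPA1A has a near-identical duplicate and lies next to HSPA1L in the RefSeq gene table, and HSPA8, HSPD1, HSPE1, PTGES3 and HSP90AA1 have processed copies elsewhere in mammalian genomes, so reads of these rows may be divided among copies.

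The DNAJA and DNAJB genes, which encode J-domain proteins, had 13 of 16 rows tested. Of these 9 lay above, 0 below and 4 overlapped, beside 35.1% above and 15.6% below over all rows tested, and the family median of 0.22 stayed positive under median-ratio scaling (0.15) and quantile normalization (0.08). DNAJB4 had the largest difference. It was at 4.74 and 3.98 FPKM (NC) against 8.39 and 10.5 FPKM (KDM5_KD), a log2 difference of 0.96 (SE 0.204, limma adjusted p of 0.124), and the higher knockdown value was that of replicate 2.

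DNAJA4 was at 3.34 and 2.31 against 4.43 and 6.26 FPKM, a ratio of group means of 1.89 (limma adjusted p of 0.227). DNAJA1, an abundant cytosolic partner of HSPA8, was at 147 and 134 FPKM (NC) against 175 and 169.6 FPKM (KDM5_KD). Its log2 difference was 0.29 (SE 0.113, limma adjusted p of 0.271), and the knockdown values were closer to each other than the control values were. DNAJA3, the J protein of mitochondria, was at 11.9 and 12.5 against 14.4 and 15.5 FPKM.

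The stress-inducible DNAJB1, the main J partner of HSPA1A, was the second most abundant member. It was at 459.9 and 348 FPKM (NC) against 396 and 349 FPKM (KDM5_KD). The groups overlapped and NC replicate 1 was the highest library, as for HSPA1A. DNAJA2 and DNAJB6, the latter a suppressor of protein aggregation, stayed within 119.7 to 129 and 111 to 122 FPKM.

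The DNAJC genes share only the J domain and are otherwise diverse. They had 25 rows of 24 genes, of which 22 rows were tested. Of these, 9 lay above and 2 below, beside 35.1% and 15.6% of all rows tested. The family median of 0.15 turned to -0.02 after quantile normalization, so it has no settled direction. The largest difference among its rows with a mean of at least 5 FPKM was that of DNAJC9, a histone chaperone as well as an HSP70 partner (picked after its values were seen). It was at 10.5 and 9.24 FPKM (NC) against 14.0 and 14.3 FPKM (KDM5_KD), with a log2 difference of 0.48, SE 0.161, limma adjusted p of 0.215.

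On the lower side, DNAJC25, an endoplasmic reticulum J protein, was at 22.3 and 25.04 FPKM (NC) against 18.2 and 19.9 FPKM (KDM5_KD), with a log2 difference of -0.30, limma adjusted p of 0.351. The protein-coding DNAJC5 row (NM_174533), for the cysteine string protein of secretory vesicles, was at 11.7 and 13.4 against 9.96 and 10.3 FPKM. A second, non-coding DNAJC5 row (NR_120605) overlapped at 2.89 to 5.31 FPKM. The most abundant DNAJC rows showed little difference: DNAJC14 was at 50.02 and 49.98 against 51.8 and 50.03 FPKM, and DNAJC7, which binds both HSP70 and HSP90, was at 39.3 and 46.6 against 41.3 and 46.7 FPKM.

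Chaperones of the endoplasmic reticulum were grouped after their values were seen. Of 10 such members, 8 lay above, 1 overlapped (DNAJB11) and 1 lay below (DNAJC25), beside the background of 35.1% above. Their rows summed to 270.4 and 280.4 FPKM (NC) against 329 and 326 FPKM (KDM5_KD). HSP90B1 was at 70.6 and 81.1 FPKM (NC) against 95.4 and 99.4 FPKM (KDM5_KD), with a log2 difference of 0.36, SE 0.124, limma adjusted p of 0.228. HSPA5, the HSP70 (BiP) that holds the stress sensors of this compartment inactive, was at 55.5 and 47.3 against 64.8 and 64.3 FPKM (log2 difference 0.33, SE 0.131, limma adjusted p of 0.278).

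Several J partners of HSPA5 had differences of like size. DNAJB9 was at 24.1 and 22.3 FPKM (NC) against 33.6 and 27.3 FPKM (KDM5_KD). DNAJC3 was at 24.7 and 25.9 against 30.6 and 30.1 FPKM, and DNAJC10, a reductase with a J domain, was at 15.7 and 17.1 against 22.5 and 19.4 FPKM. DNAJB11 did not follow them, at 43.3 and 47.3 against 45.2 and 46.96 FPKM. The median of the 10 rows was 0.33 and stayed positive after median-ratio scaling (0.25) and quantile normalization (0.19).

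**Figure D3:**
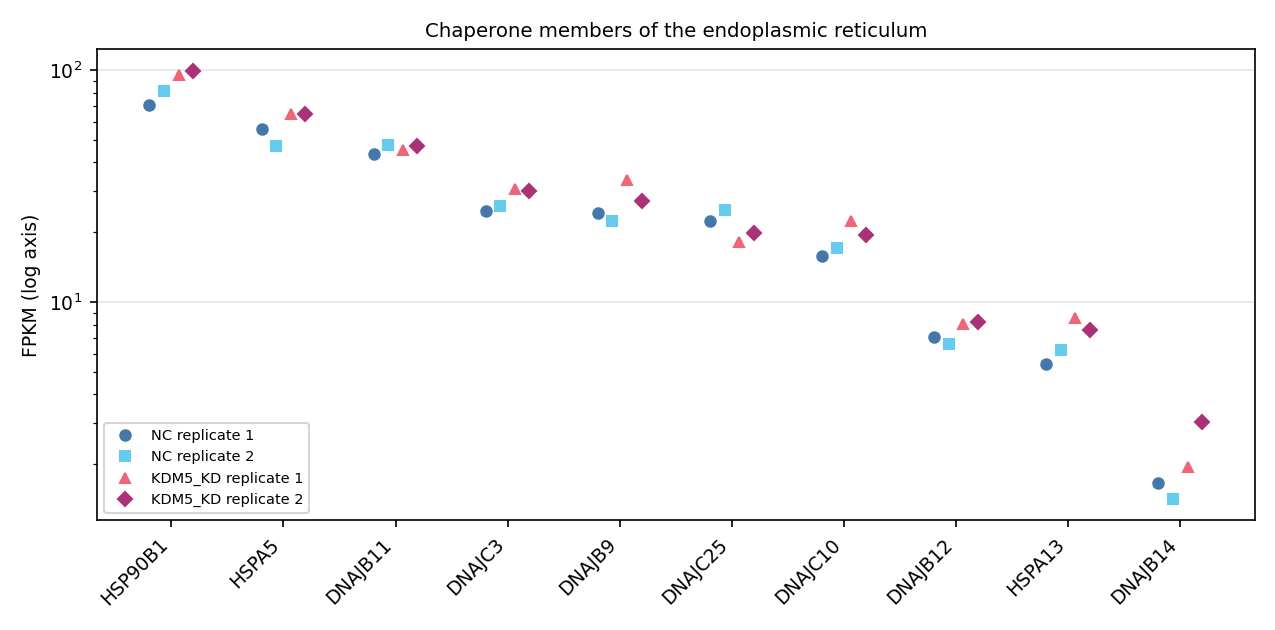
FPKM (log axis) in each of the 4 libraries for the 10 chaperone members of the endoplasmic reticulum, ordered by mean level; each marker is 1 library. The KDM5_KD markers lie above both NC markers for 8 of the 10 genes, overlap for DNAJB11 and lie below for DNAJC25.

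A list of 26 further genes of the unfolded protein response and of folding in this compartment had 23 genes with a row and 24 rows tested. None passed the adjusted threshold, 10 had an unadjusted limma p under 0.05 (all higher, background 14.3%), 17 lay above and 1 below, beside 35.1% and 15.6% of all rows. The row below was an HYOU1 row, at 10.7 and 10.4 FPKM (NC) against 9.09 and 9.31 FPKM (KDM5_KD). The other HYOU1 row lay above, at 2.12 and 3.32 against 3.75 and 7.03 FPKM. SERPINH1, described with the small heat shock proteins, is among both the 10 and the 17. PPIB, a prolyl isomerase, came nearest, at 35.2 and 37.3 FPKM (NC) against 69.3 and 70.4 FPKM (KDM5_KD), with a limma adjusted p of 0.0564. The disulfide isomerase PDIA4 was at 55.5 and 46.01 against 74.6 and 72.02 FPKM. The stress effectors DDIT3 and PPP1R15A were at 94.99 and 126 against 153 and 145 FPKM, and at 43.4 and 48.7 against 67.9 and 65.6 FPKM. ATF4, which acts upstream of both, overlapped at 163 and 176 against 202 and 167 FPKM, as did XBP1 (NM_001034727).

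Both genes of the mitochondrial chaperonin pair had main rows that lay above in KDM5_KD. HSPD1 and HSPE1 encode the barrel and the lid of one folding chamber and are next to each other in the RefSeq gene table. HSPE1 was at 89.5 and 117 FPKM (NC) against 140.1 and 138 FPKM (KDM5_KD), with a log2 difference of 0.44, SE 0.153, limma adjusted p of 0.230. The 3 HSPD1 rows summed to 29.4 and 30.2 FPKM (NC) against 38.1 and 41.5 FPKM (KDM5_KD). Its main row (NM_001166610) had a log2 difference of 0.40 (SE 0.152, limma adjusted p of 0.263), and the second row (NM_001166608) did not overlap either.

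The lowest HSPD1 row (NM_001166609) was at 1.66 and 3.42 against 4.56 and 2.55 FPKM and overlapped. HSPE1 exceeded the summed HSPD1 by 3.04 to 3.87 times in the 4 libraries, with no separation of the groups. HSPA9, the mitochondrial HSP70, was at 98.2 and 106 against 101 and 90.9 FPKM, so the groups of this partner overlapped. Among 11 other rows for mitochondrial folding factors and proteases, 3 lay above and 2 below, beside 35.1% and 15.6% of all rows tested. Their median difference was 0.04, with 7 positive. Those above were HTRA2, GRPEL2 and SPG7. Those below were TRAP1, the mitochondrial HSP90, at 29.2 and 29.5 against 21.4 and 25.8 FPKM, and the protease subunit CLPP at 31.1 and 26.98 against 19.3 and 18.1 FPKM (limma adjusted p of 0.141).

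The small heat shock proteins gave the largest difference after that of CCT6A. HSPB1 (HSP27), which guards actin filaments and unfolded proteins under stress, was at 76.8 and 27.4 FPKM (NC) against 160.4 and 148 FPKM (KDM5_KD). The knockdown libraries were close together and above both controls, but the controls themselves differed 2.81-fold. The log2 difference was 1.72 (SE 0.434, limma adjusted p of 0.153). It was 0.997 without NC replicate 2 and 2.45 without NC replicate 1. The latter fit has a single control library, the lowest for HSPB1, which is assumed to vary as the knockdown pair does, so its p-value is not given.

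HSPB6 (HSP20) was at 3.20 and 2.66 FPKM (NC) against 6.67 and 5.86 FPKM (KDM5_KD), a ratio of group means of 2.14 (log2 difference 0.89, SE 0.200, limma adjusted p of 0.132). Its controls differed less than those of HSPB1. HSPB3 overlapped at 2.21 and 0.631 against 0.991 and 0.201 FPKM, with the control of replicate 1 the highest library. Among the rows under the filter, HSPB9 (1.49 and 1.01 against 0.959 and 0.320 FPKM) and HSPB2 (0.538 and 0.732 against 0.459 and 0.467 FPKM) lay below in KDM5_KD, and HSPB8 lay above at 0.311 FPKM or less. The median of the 5 HSPB rows tested was 0.41, and without the filter that of all 8 was 0.01. The symbol rule also took in HSPBP1, an HSP70 exchange factor (54.96 and 38.1 against 39.9 and 38.3 FPKM), and HSPBAP1, a protein that binds HSPB1 (0.775 and 1.01 against 1.21 and 1.86 FPKM). HSPBAP1 passed the filter only through the knockdown libraries, and its own log2 difference of 0.41 is the median of the 5 rows. HSPB3 passed the filter only through the controls.

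CRYAB, the small heat shock protein alpha-B-crystallin, lies outside the symbol rule and was on a fixed list of 28 other co-chaperones and folding factors. It was listed at 0 and 0.385 FPKM (NC) against 4.43 and 5.14 FPKM (KDM5_KD), and it was the 1 of 26 rows tested on that list that passed (higher, log2 difference 2.30, SE 0.244, limma adjusted p of 0.0333). Its NC mean was 0.193 FPKM, so the row passed the filter of 1 FPKM only through the knockdown libraries. The call was lost in 7 of 12 alternatives, with limma adjusted p between 0.0507 and 0.275, the highest without the filter. SERPINH1 (HSP47), the collagen chaperone, was at 27.3 and 7.40 against 68.3 and 80.9 FPKM, which is the same order of libraries as HSPB1 except between the knockdown replicates.

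The summed markers of cumulus or granulosa cells and of an interferon response were lowest in NC replicate 2, with NC replicate 1 between it and the knockdown libraries, although not every marker followed. VIM, a filament gene of mesenchymal cells, was at 35.6 and 8.09 FPKM (NC) against 84.6 and 98.1 FPKM (KDM5_KD). The 15 cumulus and granulosa markers summed to 71.1 and 32.03 against 161 and 166 FPKM, and 10 of the 12 tested lay above, beside 35.1% of all rows. COL1A2 and VCAN passed the filter only through their knockdown values. CYP11A1 and HSD3B1, steroid-synthesis genes of the list, were at 8.41 and 3.79 against 12.5 and 17.2 FPKM and at 2.52 and 1.75 against 5.78 and 4.804 FPKM, and STAR, INHBA, FST and HAS2 lay above as well. LUM and COL1A2 were higher in NC replicate 2 than in NC replicate 1, and AMH and TNFAIP6 overlapped. The receptor FSHR, the aromatase CYP19A1 and PTX3 were the 3 that were not tested, at 0.353 FPKM or less, and FSHR was at 0 in both controls. The 8 interferon genes with a row summed to 179 and 55.97 against 411 and 412 FPKM, with MX2 the one of 7 tested that overlapped, and the 11 oocyte genes to 282 and 207 against 310.2 and 401 FPKM. Of the interferon genes, IFIT3 had an NC mean of 0.767 FPKM and passed the filter only through its knockdown values. Fewer or more cells of a type and a change of RNA per cell cannot be told apart in these pooled samples, and the part of these markers in the HSPB1 and HSPB6 results was not tested.

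**Figure D4:**
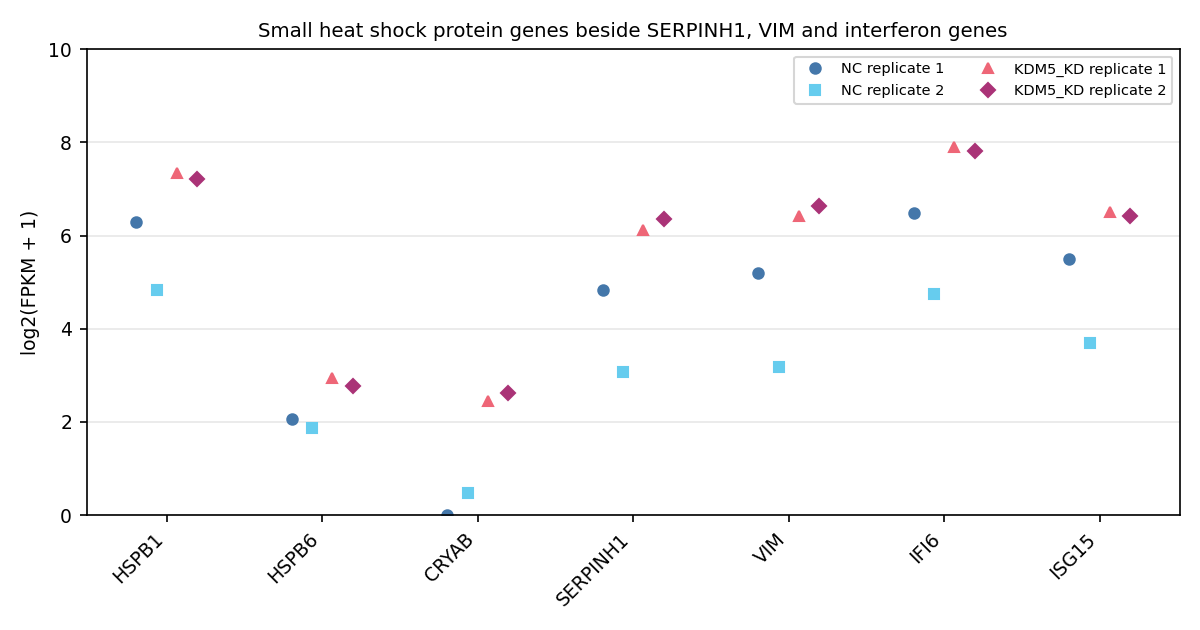
log2(FPKM + 1) in each of the 4 libraries for the small heat shock protein genes HSPB1, HSPB6 and CRYAB beside SERPINH1, VIM, IFI6 and ISG15; each marker is 1 library. NC replicate 2 is the lowest library for HSPB1, SERPINH1, VIM, IFI6 and ISG15, with NC replicate 1 between it and the KDM5_KD libraries.

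The cytosolic chaperonin, a double ring of TCP1 and the CCT2 to CCT8 subunits, differed little between groups. TCP1, CCT3, CCT4, CCT5, CCT7 and CCT8 lay between 100.5 and 158 FPKM in all 4 libraries, and their log2 differences lay between -0.14 and -0.01. Over all 8 rows tested the median was -0.04 with 2 positive, and without NC replicate 2 it was 0.05 with 6 positive. CCT5 was the subunit whose groups did not overlap on the lower side, at 139 and 140.4 FPKM (NC) against 123 and 131 FPKM (KDM5_KD), with a log2 difference of -0.14, SE 0.109, limma adjusted p of 0.561. CCT8 had the highest mean, at 125 and 158 against 134 and 142 FPKM, and its controls spanned the knockdown values.

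Other subunits of this ring were listed lower than the rest although the ring holds each subunit in equal number. CCT2 was at 34.5 and 32.7 FPKM (NC) against 39.2 and 41.04 FPKM (KDM5_KD), or 25.6% to 35.4% of the median of the 6 subunits above. CCT6A was at 19.1 and 0.105 FPKM (NC) against 22.9 and 26.4 FPKM (KDM5_KD). Its log2 difference of 2.44 (SE 1.21, limma adjusted p of 0.365) therefore rested on NC replicate 2: without that library it was 0.35, and without NC replicate 1 it was 4.53. The latter fit sets the aberrant library alone against the knockdown pair and assumes that it varies as that pair does, so its p-value is not given. The paralog CCT6B was at 0.363 FPKM in that library and at 0.213, 0.272 and 0.464 FPKM in the other 3.

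Prefoldin, which passes actin and tubulin chains to the CCT ring, had 5 of its genes among the members, all tested. PFDN1 differed most. It was at 32.7 and 33.4 FPKM (NC) against 47.8 and 55.3 FPKM (KDM5_KD), so the controls were within 1 FPKM of each other and both knockdown libraries lay well above (log2 difference 0.62, SE 0.133, limma adjusted p of 0.124). PFDN4 was at 3.82 and 4.52 against 5.40 and 8.53 FPKM (log2 difference 0.60, SE 0.251, limma adjusted p of 0.296).

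The other prefoldin genes overlapped. PFDN6 was at 88.3 and 82.9 against 97.96 and 81.4 FPKM, PFDN2 at 74.96 and 81.7 against 75.03 and 75.6 FPKM, and PFDN5 at 14.6 and 19.1 against 16.2 and 19.5 FPKM. VBP1, the remaining prefoldin subunit, carries another name and was on the list of other co-chaperones. It was at 120.5 and 157 against 118 and 144.5 FPKM, so 4 of the 6 prefoldin subunit genes overlapped, beside 4420 of all 8970 rows tested.

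**Figure D5:**
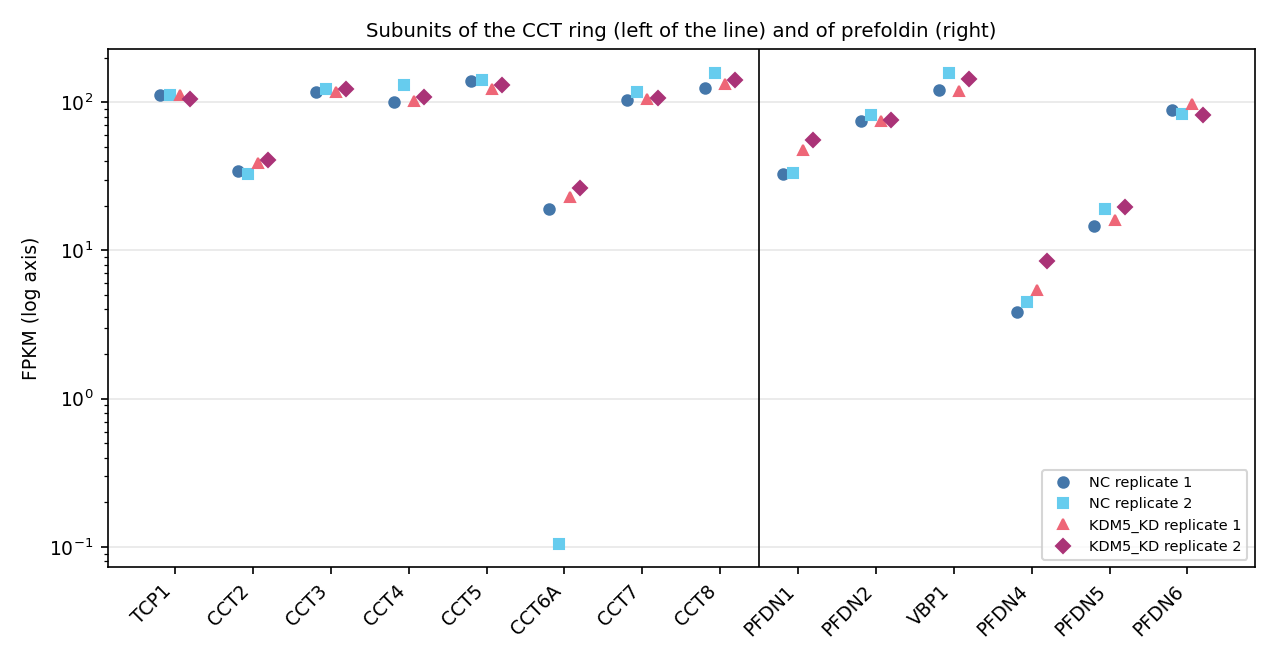
FPKM (log axis) in each of the 4 libraries for the 8 subunit genes of the CCT ring (left) and 6 prefoldin subunit genes (right); each marker is 1 library. Of the CCT genes, 6 lie between 100.5 and 158 FPKM, CCT2 and CCT6A lie lower, CCT6A falls to 0.105 FPKM in NC replicate 2, and PFDN1 and PFDN4 have both KDM5_KD values above both NC values.

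Of the 26 rows tested on the list that holds VBP1 and CRYAB, 10 lay above and 1 below, beside 35.1% and 15.6% of all rows, so the share above was near the background. Those above included the tubulin folding cofactors TBCA, TBCB and TBCE, which act after the CCT ring and were picked here after their values were seen. TBCB was at 11.6 and 12.4 FPKM (NC) against 18.2 and 16.3 FPKM (KDM5_KD), with a limma adjusted p of 0.205, TBCA at 8.82 and 5.10 against 11.7 and 14.3 FPKM (0.204) and TBCE at 7.21 and 8.46 against 10.9 and 16.5 FPKM (0.210). The other cofactors, TBCC and TBCD, overlapped. The HSP90 immunophilins FKBP4 and FKBP5 were at 11 and 6.37 against 13.7 and 22.1 FPKM and at 12.5 and 9.02 against 13.8 and 22.04 FPKM, in both cases with KDM5_KD replicate 2 far above the rest.

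The BAG genes, exchange factors that release clients from HSP70, lay on both sides. Of 6 rows, 2 lay above and 2 below, beside 35.1% and 15.6% of all rows tested. The family median of 0.03 was -0.05 after median-ratio scaling and -0.08 after quantile normalization. BAG1, which links HSP70 to the proteasome, was at 17.8 and 18.2 FPKM (NC) against 23.4 and 24.9 FPKM (KDM5_KD), with a log2 difference of 0.41, SE 0.137, limma adjusted p of 0.221. BAG3, the stress-inducible member that routes clients to autophagy, was at 21.9 and 18.0 against 29.5 and 23.4 FPKM (limma adjusted p of 0.331). BAG5 lay below, at 10.2 and 9.88 FPKM in NC against 7.83 and 7.91 FPKM in KDM5_KD (log2 difference -0.32, SE 0.165, limma adjusted p of 0.381), with little spread inside either group.

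BAG2, which inhibits the HSP70 ubiquitin ligase STUB1, was at 25.3 and 19.2 against 17.95 and 18.4 FPKM. Its separation was narrow, and without NC replicate 1 the log2 difference shrank to -0.07. BAG6, the most abundant of the family and a guard of tail-anchored proteins, was at 32.9 and 27.8 against 30.4 and 31.2 FPKM and overlapped. BAG4 stayed within 10.5 to 11.6 FPKM.

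Of the heat shock factors, HSF1 and HSF2 were both listed above 9 FPKM. HSF1, the master regulator of the heat shock response, was at 84.1 and 70.3 FPKM (NC) against 70.4 and 83.3 FPKM (KDM5_KD). Its difference was -0.01 with a 95% confidence interval of -0.37 to 0.36. HSF2, which has roles in gametes and development, was at 11.3 and 12.3 against 9.56 and 9.28 FPKM (log2 difference -0.30, SE 0.161, limma adjusted p of 0.399). The germ-cell protein gene HSF2BP was at 1.64 to 2.07 FPKM and overlapped.

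Of the inducible genes that HSF1 is known for, 6 are named here after their values were seen, and they did not share a direction. HSPA1A and DNAJB1 overlapped with the higher mean in NC, HSPH1 overlapped with the higher mean in KDM5_KD, and HSP90AA1, BAG3 and HSPB1 lay above in KDM5_KD. Their ratios of group means, KDM5_KD over NC, were 0.835, 0.923, 1.14, 1.12, 1.33 and 2.96 in this order. Of the 38 members that lay above, NC replicate 1 exceeded NC replicate 2 in 23 (60.5%), beside 66.3% of all rows that lay above and 55.8% of all rows tested.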

How the data were processed

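Polyadenylated RNA of 4 libraries (NC replicates 1 and 2, KDM5_KD replicates 1 and 2, grouped by title) was analysed from the table of FPKM values that the authors deposited, the unit being taken from the table's name and values. Per the submitters' processing notes, Trimmomatic, HISAT2, featureCounts and Cufflinks were used; their versions and roles, the genome build and the strandedness of counting are not given in the sources used here. Values reach down to 4.83e-141, so FPKM are estimates that can divide reads between rows, and a 0 may be an estimate that failed.

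Symbols came from RefSeq genes (assembly ARS-UCD2.0) for 14295 of 14517 accessions; no coordinates and no sequences are printed. The 8970 rows with a mean of at least 1 FPKM were fitted with limma 3.58.1 (R 4.3.3) on log2(FPKM + 1), with lmFit, eBayes and a mean-variance trend, on all 4 libraries without covariates. P-values are two-sided and were adjusted by the Benjamini-Hochberg method over the 8970 rows. An exact permutation of 2 against 2 libraries cannot go below p = 0.333. The log2 scale with a pseudocount understates changes of low rows. The fit was tested on simulated data drawn from its own fitted variances with independent noise, which checks the code and not how these libraries vary.

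Members, lists and the rule for named genes were chosen with earlier results of these data known. The rule takes members past the threshold, the 6 largest differences per direction among rows with a mean of at least 5 FPKM and no overlap between groups, and the 2 most abundant rows of each family (29 rows). Tables were made with pandas 2.3.3 and numpy 2.4.6 in Python 3.11.15, and plots with matplotlib 3.10.9. Alternatives tried were no filter or a mean of at least 5 FPKM, a pseudocount of 0.1, median-ratio scaling, quantile normalization, eBayes without a trend or robust, the replicate number as a block, rows summed by symbol, and each library left out.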

Additional observations from a re-analysis of the deposited data

How the results depend on the processing

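No member passed the threshold under any of the 9 alternatives that kept all 4 libraries. Fits that left out 1 library kept a single library in 1 group, so their calls are not given. Without NC replicate 1 the log2 differences were 2.45 for HSPB1 and 4.53 for CCT6A. Without NC replicate 2 they were 0.997 and 0.35. Calls over all rows, 25 as reported, were 16 without a filter, 12 without a trend, 46 with robust eBayes, 12 with the replicate block and 6 to 340 with 1 library left out. The replicate block changed no call of a member. Same-numbered libraries deviated from their group means with a correlation of 0.229, which is a hint from the data only, since the labels do not say what a number stands for.

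Members lying above numbered 25 after quantile normalization, and those below numbered 18 after either scaling. With 1 library left out, 43 to 54 members lay above, beside 44.96% to 50.02% of all rows, and 10 to 22 below, beside 25.4% to 28.9%. Without KDM5_KD replicate 1, 43 of 83 lay above, beside 49.9% of all rows. The members' median difference (0.09) was 0.12 with a pseudocount of 0.1, 0.071 with a mean of at least 5 FPKM, 0.029 after median-ratio scaling, 0.0097 after quantile normalization and 0.11 to 0.16 with 1 library left out. That of all rows was 0.031 without a filter, 0.041 with a mean of at least 5 FPKM, 0.016 after median-ratio scaling, -0.045 after quantile normalization and 0.070 to 0.117 with 1 library left out.

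Of the 29 named members, 18 kept their sign in all 13 alternatives and 11, all with differences near 0 or overlapping groups, did not. Rows named for the largest differences were chosen for groups that do not overlap. Only the scalings or the summing of rows could have turned their sign. After median-ratio scaling PTGES3 was at -0.081, DNAJC14 at -0.059, DNAJC7 at -0.051, PFDN6 at -0.024 and BAG6 at -0.060. After quantile normalization HSPA8 was at 0.070, DNAJC14 at -0.0098, DNAJC7 at -0.011, BAG6 at -0.043 and HSF1 at 0.0043. With 1 library left out the ranges were BAG6 -0.095 to 0.14, CCT8 -0.195 to 0.14, DNAJB1 -0.305 to 0.097, DNAJC7 -0.086 to 0.15, HSF1 -0.13 to 0.12, HSPA8 -0.15 to 0.11, HSPBP1 -0.48 to 0.036, PFDN2 -0.12 to 0.0065, PFDN6 -0.0701 to 0.19 and PTGES3 -0.12 to 0.13. The cause of these changes was not tested. Depth limits the lowest rows most, but without counts no detection limit can be stated.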

Other observations

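The near-absence of CCT6A from a single library was rare in the table. Rows at 10 FPKM or more in 3 libraries and under 0.5 FPKM in the other numbered 1 for NC replicate 1, 2 for NC replicate 2, 1 for KDM5_KD replicate 1 and 0 for KDM5_KD replicate 2, and CCT6A was the only chaperone member among them. With no read counts, a failed estimate and a true absence of the transcript cannot be told apart.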
